A study of Mus musculus with 3 samples.

Results

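Genes of mitosis and the kinetochore were followed in dendritic cells, which take up and present antigen, grown from mouse bone marrow and kept for 24 h with PBS, LPS or PTX. The set held 45 named genes for the entry into mitosis, the kinetochore, the spindle and the division of the cell body, and its members were every probe set whose platform annotation gave exactly 1 of these symbols. Of the 45 genes, 44 had such a probe set, of 18193 genes in all, and together they had 102 probe sets. Ccnb1, for cyclin B1, was not analysed here because no probe set carried its symbol alone.

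Marrow was taken from female C57BL6 mice at 6 weeks of age, per the labels, all cultures received murine recombinant GM-CSF at 20 ng/mL, and nonadherent cells released from proliferating clusters were collected on day 7. The control cells then received PBS. The LPS cells received lipopolysaccharide, from the outer membrane of bacteria, at 1 µg/mL, and the PTX cells a stimulus labelled PTX at 100 ng/mL, an abbreviation that the labels do not spell out. The strain label reads C57BL/6 for the PBS and LPS samples and C57BL/7 for the PTX sample. Each of the 3 groups was 1 array, so the spread among cultures of 1 group is unknown, nothing could be tested and no p-value is given. The labels do not say whether the cultures shared a mouse. What follows gives readings and how far they lie apart, and their precision is limited by the number of arrays.

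Cells divide by copying their DNA and then building a spindle of microtubules that binds each chromosome at its kinetochore, a protein complex laid on the centromere. The kinase Cdk1 with cyclin A or B starts mitosis, a checkpoint holds it until all kinetochores are attached, and the anaphase-promoting complex then marks cyclins and securin for destruction so that the chromosomes part. Most of these genes are transcribed mainly in late S, G2 and M phase, so their mRNA is used to tell whether a population holds dividing cells. Dendritic cells grown with GM-CSF come from progenitors that divide in the culture, and mature dendritic cells divide little.

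Promoters are shown for 6 members because mitotic genes are known to share short promoter elements and because the members lay low together in these data. The CHR (cell cycle genes homology region, searched as TTTGAA, with TTCGAA as a variant) is bound by the MuvB complexes, which repress these genes in resting cells and activate them in G2. The CCAAT box (searched as CCAAT) is bound by the activator NF-Y, and the E2F core (searched as TTGGCGC, with the variants TTCGCGC and also TTCCCGC) by E2F proteins. Both strands were searched, and TTGGCGC read on the opposite strand overlaps a CCAAT box by 4 of its bases. The sequences below are RefSeq promoters of build GRCm38.p6, each from 180 bases before the start to 20 bases after it, 5′ to 3′ on the strand of the gene, with the matches that lie wholly inside them in capitals. They are the members with a match nearest the start, at most 1 a role, whatever their differences. Of the 6, Kif4, Prc1 and Cenpf were within 2-fold of PBS with either stimulus by the probe set that represents them below.
Kif4 (chrX:100625885-100626084, plus strand): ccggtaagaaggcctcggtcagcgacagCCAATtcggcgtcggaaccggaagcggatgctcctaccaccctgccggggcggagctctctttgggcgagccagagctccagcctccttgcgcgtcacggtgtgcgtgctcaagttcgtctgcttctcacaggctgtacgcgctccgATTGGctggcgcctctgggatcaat
Prc1 (chr7:80294271-80294470, plus strand): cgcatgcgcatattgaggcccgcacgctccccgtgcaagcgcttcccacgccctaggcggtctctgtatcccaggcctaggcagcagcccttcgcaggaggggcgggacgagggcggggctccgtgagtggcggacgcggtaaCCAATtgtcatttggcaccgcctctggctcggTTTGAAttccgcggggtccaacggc
Ect2 (chr3:27153859-27154058, minus strand): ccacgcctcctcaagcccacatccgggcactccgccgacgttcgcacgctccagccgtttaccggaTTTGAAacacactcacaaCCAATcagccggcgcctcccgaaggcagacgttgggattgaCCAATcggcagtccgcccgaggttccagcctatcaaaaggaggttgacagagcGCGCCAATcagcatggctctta
Cenpf (chr1:189688067-189688266, minus strand): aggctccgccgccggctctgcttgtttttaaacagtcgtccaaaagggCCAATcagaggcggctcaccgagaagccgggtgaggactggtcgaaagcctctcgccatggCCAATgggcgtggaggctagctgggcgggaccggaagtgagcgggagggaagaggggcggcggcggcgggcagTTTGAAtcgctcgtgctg
Cdc20 (chr4:118437324-118437523, minus strand): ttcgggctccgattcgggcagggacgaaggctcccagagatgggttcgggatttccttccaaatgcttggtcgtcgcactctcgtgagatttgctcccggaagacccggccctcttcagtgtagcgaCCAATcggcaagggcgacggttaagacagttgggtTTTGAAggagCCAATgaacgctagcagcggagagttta
Ccnb2 (chr9:70421535-70421734, minus strand): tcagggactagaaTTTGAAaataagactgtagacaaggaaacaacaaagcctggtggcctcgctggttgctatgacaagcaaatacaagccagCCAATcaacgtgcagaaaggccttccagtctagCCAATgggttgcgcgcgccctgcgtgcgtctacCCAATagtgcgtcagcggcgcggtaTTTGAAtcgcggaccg

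RefSeq promoter windows of 300 bases, from 250 before to 50 after the start, were at hand for 39 members, Ccnb1 among them (43 windows, since 3 members had several). TTTGAA stood in 29 of the 43 windows (67.4%), against 17.9% of all 32851 windows and 12.2% of the windows of genes measured here. CCAAT stood in 34 (79.1%), against 37.4% of all windows. A CHR or its variant and a CCAAT box stood together in 27 windows (62.8%), against 7.52% of all windows. An E2F core stood in 9 (20.9%), against 8.07% of all windows and 13.6% of those of measured genes, so this motif set the members less far from other measured genes than the CHR did. In 27 windows a CHR or variant began within 50 bases of the start, on either side (62.8%, against 5.31% of all windows), and in 25 of them it lay downstream of a CCAAT box (58.1%, against 2.00%). Prc1 has this arrangement with its CHR across the start, Cenpf with its CHR just after it and Cdc20 with its CHR just before it. These matches are of letters and are not shown to be bound sites.

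**Figure D1:**
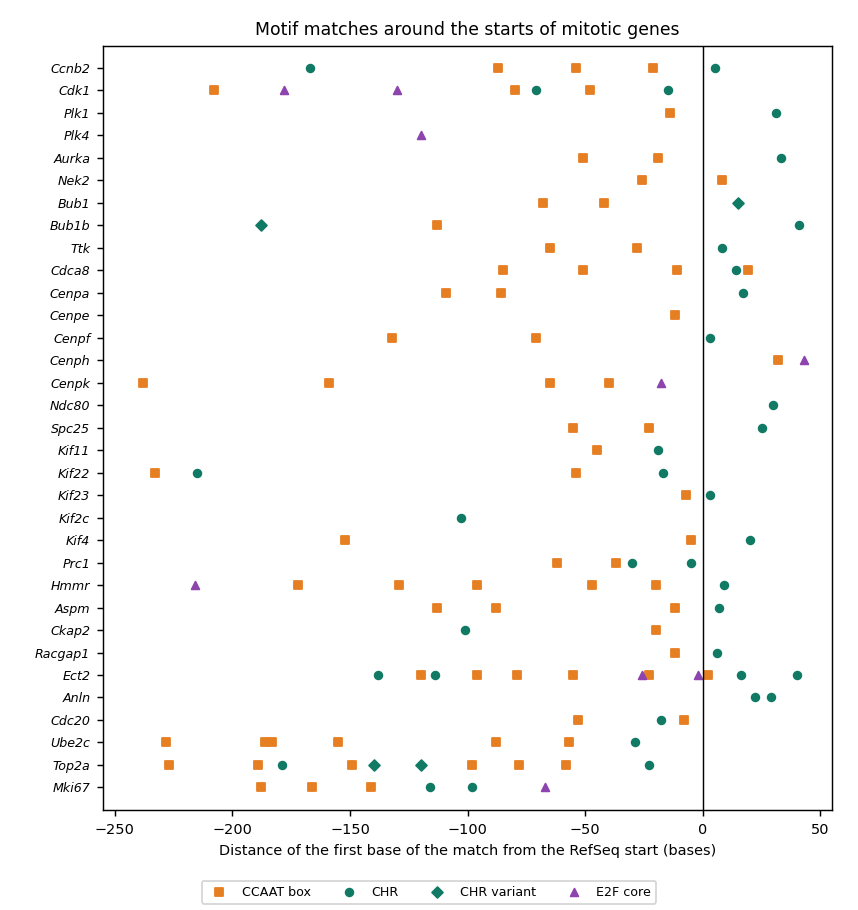
Motif matches in the RefSeq promoter windows of the 33 measured members with at least 1 match. The horizontal axis is the distance of the first base of a match from the start in bases (0 marks the start), and symbols give the motif. Most members have a CHR match within 50 bases of the start, and most CCAAT boxes lie before the start.

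Birc5, Mad2l1, Nuf2, Nusap1 and Pttg1 had a window and no match. No window was used for Aurkb, Ccna2, Cdc25c, Incenp, Kif20a and Tpx2. Among the 28 measured members with a CHR or variant, the log2 differences from PBS had medians of -1.83 with LPS and -1.68 with PTX. The 10 measured members with a window and no CHR had medians of -1.69 and -1.56. At least 2-fold lower in LPS were 24 of the 28 with a CHR (85.7%) and 7 of the 10 without (70%). In PTX the order of the shares was the opposite, with 23 (82.1%) and 9 (90%). Outside the members, 639 measured genes held both a CHR and a CCAAT box, and 15.3% of them were at least 2-fold lower in LPS against PBS, against 12.4% of the 4892 that held neither. In PTX against PBS these shares were 5.16% and 1.49%. Without the other mitotic and replication genes listed below, the first group held 613 genes, of which 13.5% and 3.10% were at least 2-fold lower.

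The deposited values are intensities on a linear scale, with a median over the 45101 probe sets of 85.8 for PBS, 65.4 for LPS and 87.0 for PTX. Controls also set the LPS array apart. Its 18 bacterial hybridization controls lay at a median of 0.20 (log2) from the PBS array (14 of 18 above 0), against 0.01 for PTX. For 18S ribosomal RNA the ratio of the 3′ probe set to the 5′ one was 1.95 with LPS, 0.26 with PBS and 0.20 with PTX, whereas that of Gapdh lay between 0.96 and 1.12 on the 3 arrays. The part of this array's quality in the LPS values below was not tested. Differences are given as log2(intensity + 16), a scale on which the added 16 shrinks the differences of dim probe sets. Where several probe sets read a gene, the one of highest mean log2 stands for it, and the gene is called measured if that one reached an intensity of 78.9, the median of all values, on at least 1 array. This left 12299 genes. All 44 members were measured, each on the PBS array at least, and 13 reached the level on the PBS array alone. Those 13 passed through the array on which they were high, but no member was lost to this filter, so the counts over 44 are the same without it. Of the 44, 25 reached the level with LPS and 29 with PTX. Readings under it may be background, and a difference that ends there has an uncertain size.

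The mitotic genes lay well below the PBS level after either stimulus. In LPS against PBS, 35 of the 44 members were at least 2-fold lower (79.5%), none was higher and 9 were within 2-fold, where 13% of all measured genes were at least 2-fold lower and 6.5% higher. The median log2 difference of the members was -1.82 (quartiles -2.66 and -1.45), against -0.08 over all measured genes (quartiles -0.52 and 0.30). In PTX against PBS, 36 members were at least 2-fold lower (81.8%), none was higher and 8 were within 2-fold, where 2.37% of all measured genes were lower and 3.04% higher. The median was -1.63 (quartiles -2.05 and -1.20), against 0.01 over all genes (quartiles -0.19 and 0.20). Both comparisons use the same PBS array, so a high reading there lowers both. Bulk RNA cannot tell fewer dividing cells from less of these mRNAs in each cell.

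At least 4-fold lower were 20 members in LPS against PBS, where 2.79% of all measured genes were, and 13 in PTX against PBS, where 0.504% were. At least 8-fold lower were 7 members in LPS (0.415% of all genes) and none in PTX (0.065%). Of the 100 measured genes with the lowest differences, 11 were members in LPS against PBS and 22 in PTX against PBS. Members stood low in each range of PBS intensity. Of 20 members that read at least 500 on the PBS array, 18 were at least 2-fold lower in LPS and 17 in PTX, against 9.42% and 3.15% of the 4502 genes in that range. Of 17 members between 200 and 500, 13 were lower in LPS and 14 in PTX, against 13.6% and 2.96% of 3205 genes. Of the 7 members between the measured level and 200, 4 were lower in LPS and 5 in PTX, against 18.6% and 1.47% of 3747 genes. Those lower in this last range each reached the level on the PBS array alone. The ranges were cut on that same array, so they are no independent evidence.

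**Figure D2:**
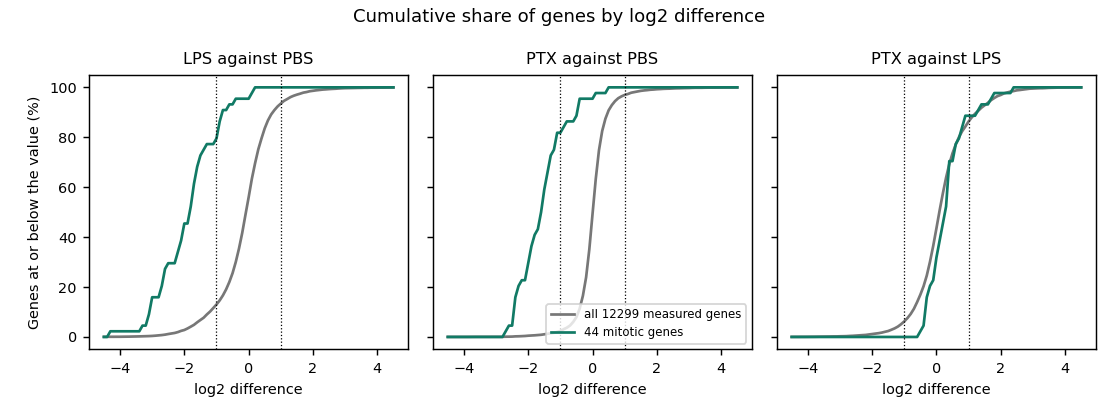
Cumulative share of genes (vertical axis, %) at or below each log2 difference (horizontal axis) for the 44 mitotic genes and for all 12299 measured genes, with dotted lines at 2-fold. The mitotic genes lie left of all genes in LPS against PBS (median -1.82 against -0.08) and in PTX against PBS (-1.63 against 0.01), and near them in PTX against LPS (0.28 against 0.09).

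**Figure D3:**
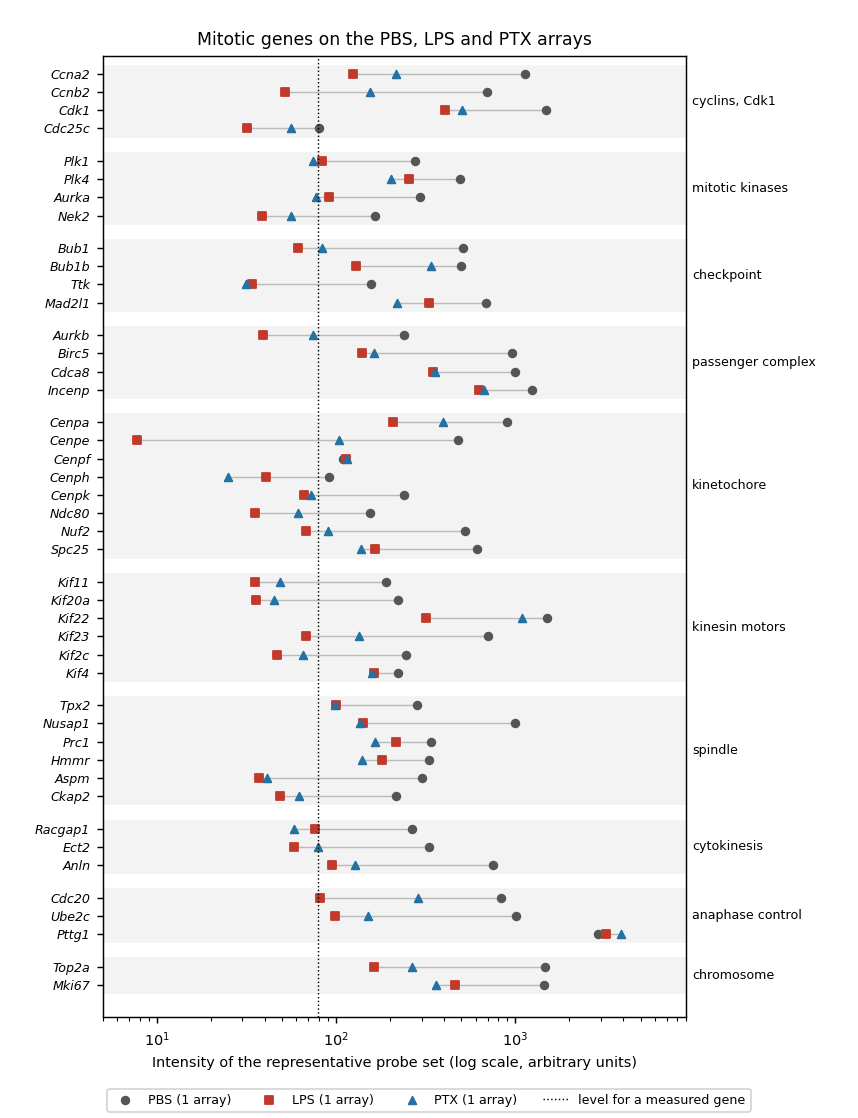
Intensity of each member's representative probe set on the 3 arrays (log axis, 1 array per group), grouped by role, with the level for a measured gene as a dotted line. The PBS array reads highest in each row except Cenpf and Pttg1. Levels of different genes are read by different probes and are not comparable.

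The cyclins and their kinase open mitosis. Ccna2, for cyclin A2 of S phase and mitotic entry, read 1131 with PBS, 125 with LPS and 216 with PTX. Its log2 difference from PBS was -3.03 in LPS and -2.30 in PTX, and its other probe set gave -2.78 and -2.71. Ccnb2, a B-type cyclin, read 692 with PBS, 51.8 with LPS and 154 with PTX (-3.39 and -2.06). Cdk1, the kinase that both cyclins activate, read 1474, 407 and 505 in the same order of arrays (-1.82 and -1.51). All 3 genes were thus lower after either stimulus, by more than 2-fold. Cdc25c, the phosphatase that removes the inhibitory phosphates of Cdk1, was dim throughout at 79.8, 32.0 and 56.2, and its differences of -0.997 and -0.41 stayed within the 2-fold bounds.

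Among the mitotic kinases, Plk1 (centrosome maturation, kinetochore attachment and cytokinesis) read 274 with PBS, 83.8 with LPS and 74.6 with PTX, differences of -1.54 and -1.68. Aurka, the spindle pole kinase, read 293, 91.4 and 77.4 (-1.53 and -1.73). Plk4 starts the duplication of centrioles. It read 489, 256 and 201 (-0.89 and -1.22), and its 2 other measured probe sets gave -1.22 and -1.46 in LPS and -0.92 and -1.08 in PTX. Nek2, a kinase that separates centrosomes, read 165, 38.6 and 55.9 (-1.73 and -1.33). Its probe sets disagreed in PTX against PBS. One of them read 31.1, 20.5 and 149, a difference of 1.81 in the opposite direction, while another gave -1.27.

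The spindle assembly checkpoint stops anaphase while kinetochores are unattached. Bub1, its kinetochore kinase, read 509 with PBS, 61.1 with LPS and 83.1 with PTX (-2.77 and -2.41). Ttk, the kinase that starts the signal, read 156, 34.0 and 31.3 (-1.79 and -1.87). Mad2l1, the protein that holds Cdc20 inactive, read 681, 330 and 217 (-1.01 and -1.58). All 4 checkpoint genes were thus at least 2-fold lower in LPS. Bub1b, for the checkpoint subunit BubR1, was less clear in PTX. It read 498, 130 and 339 (-1.82 and -0.53), whereas a second probe set read 435, 193 and 194 (-1.11 and -1.10) and the remaining one 123, 81.2 and 83.3 (-0.52 and -0.49). In PTX 2 of the 3 were thus within 2-fold, and in LPS 1.

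The chromosomal passenger complex corrects wrong attachments and guides cytokinesis. Birc5, for survivin, read 961 with PBS, 140 with LPS and 163 with PTX (-2.65 and -2.45). Aurkb, its kinase, read 238, 39.1 and 74.4 (-2.21 and -1.49), and Cdca8, for borealin, 997, 347 and 356 (-1.48 and -1.45). All 3 probe sets of Cdca8 lay between -1.61 and -1.44 in both comparisons. Incenp, the scaffold of the complex, was least apart at 1242, 630 and 667 (-0.96 and -0.88). Its other measured probe sets lay between -2.49 and -1.16 in LPS and between -0.95 and -0.22 in PTX.

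Of 8 centromere and kinetochore genes, 6 were at least 2-fold lower in LPS and 7 in PTX. Cenpa, the histone H3 variant that marks centromeres, read 901 with PBS, 207 with LPS and 395 with PTX (-2.04 and -1.16). Its other measured probe set gave -1.94 in LPS and was within 2-fold in PTX (-0.49). Within the Ndc80 complex, which grips microtubules, Nuf2 read 522, 67.7 and 89.6 (-2.68 and -2.35), Spc25 608, 165 and 138 (-1.79 and -2.02), and Ndc80 itself 154, 35.1 and 60.9 (-1.74 and -1.15). These 3 subunits were all low after either stimulus. Cenpk and Cenph belong to the inner kinetochore. Cenpk read 241, 66.0 and 72.3 (-1.65 and -1.54), and Cenph 91.6, 40.7 and 25.1 (-0.92 and -1.39), with both stimulated readings under the measured level.

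Cenpe and Cenpf, large proteins of the outer kinetochore, show how far probe sets of 1 gene can part. Cenpe, a kinesin that moves chromosomes to the spindle equator, read 477 with PBS, 7.72 with LPS and 103 with PTX (-4.38 and -2.05). The LPS reading lay far under the measured level, so the size is uncertain, and with a pseudocount of 1, under which the other probe set stands for the gene, the LPS difference was -2.63. This other probe set read 243, 38.5 and 71.7 (-2.25 and -1.56), so both were low and the size differed. Cenpf was level by its representative probe set, at 110, 113 and 115 (0.04 and 0.06). A second probe set read 297, 26.9 and 61.9 (-2.87 and -2.01), and the remaining one read 213, 26.2 and 192 (-2.44 and -0.14). In LPS the level reading of Cenpf therefore rests on 1 of 3 probe sets, and in PTX 2 of 3 were within 2-fold. Its LPS difference was -1.76 by the mean of all probe sets.

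The kinesin motors slide and take apart spindle microtubules. Kif23, of the centralspindlin complex at the midzone, read 703 with PBS, 67.9 with LPS and 135 with PTX (-3.10 and -2.25). Kif11, which pushes the spindle poles apart, read 190, 35.1 and 48.3 (-2.01 and -1.68). Kif20a, a carrier of the passenger complex, read 222, 35.9 and 44.97 (-2.20 and -1.97), and Kif2c, which shortens microtubules at kinetochores, 246, 46.5 and 65.2 (-2.07 and -1.69). By these probe sets the 4 motors were at least 2-fold lower after either stimulus. The other measured probe set of Kif2c was within 2-fold (-0.70 and -0.81), and 1 other of Kif11 was in PTX (-0.66). Kif4, a motor of chromosome arms and the midzone, was within 2-fold, at 220, 163 and 159 (-0.40 and -0.43) in its only probe set. Kif22, another chromosome arm motor, read 1503, 317 and 1086 (-2.19 and -0.46), but its other measured probe sets gave -1.77 and -1.11 in LPS and -1.57 and -1.08 in PTX.

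Spindle assembly and bundling genes were low with 2 exceptions in LPS. Nusap1, a microtubule binding protein, read 998 with PBS, 141 with LPS and 136 with PTX (-2.69 and -2.74), with a PTX difference of -1.77 by the mean of all probe sets. Aspm, at the spindle poles, read 301, 36.9 and 41.2 (-2.58 and -2.47), with its other measured probe set at -2.68 and -2.17. Tpx2, the activator of Aurora A, read 284, 100.4 and 98.5 (-1.36 and -1.39), and Ckap2 216, 48.4 and 62.0 (-1.85 and -1.58). The other measured probe set of Tpx2 gave -0.43 in LPS and -1.49 in PTX. The exceptions also had probe sets that disagreed. Prc1, which bundles midzone microtubules, read 337, 216 and 166 (-0.60 and -0.96) by 1 probe set and 616, 77.3 and 98.4 (-2.76 and -2.47) by the other. Hmmr, a spindle protein also known as a hyaluronan receptor, read 328, 181 and 140 (-0.80 and -1.14) by 1 probe set and 433, 77.4 and 118 (-2.27 and -1.75) by another. The further measured probe sets of Hmmr gave -2.33 and -1.79 in LPS and -0.84 and -1.003 in PTX.

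The 3 cytokinesis genes were at least 2-fold lower in both comparisons. Anln, for the contractile ring scaffold anillin, read 746 with PBS, 94.7 with LPS and 127 with PTX (-2.78 and -2.41). Ect2, which activates RhoA at the cleavage plane, read 331, 58.4 and 79.5 (-2.22 and -1.86). Racgap1, the partner of Kif23 in centralspindlin, read 266, 75.8 and 58.5 (-1.62 and -1.92).

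The anaphase genes split. Ube2c, the ubiquitin conjugase of the anaphase-promoting complex, read 1011 with PBS, 99.0 with LPS and 151 with PTX (-3.16 and -2.62). Cdc20, its activator, read 828, 81.1 and 287 (-3.12 and -1.48), and its other probe sets gave -2.38 and -1.15 in LPS and -1.02 and -1.10 in PTX. Pttg1, for securin, the inhibitor of separase, was not lower by its representative probe set, at 2909, 3221 and 3899 (0.15 and 0.42). All 3 probe sets of Pttg1 were measured and stayed within 2-fold, between -0.39 and 0.63 in LPS and between 0.16 and 0.42 in PTX, so no probe set of it shared the low reading of the other members. Of the chromosome genes, Top2a, which untangles sister DNA, read 1471, 162 and 264 (-3.06 and -2.41), and Mki67, which coats mitotic chromosomes and is used as a marker of dividing cells, 1441, 462 and 361 (-1.61 and -1.95).

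**Figure D4:**
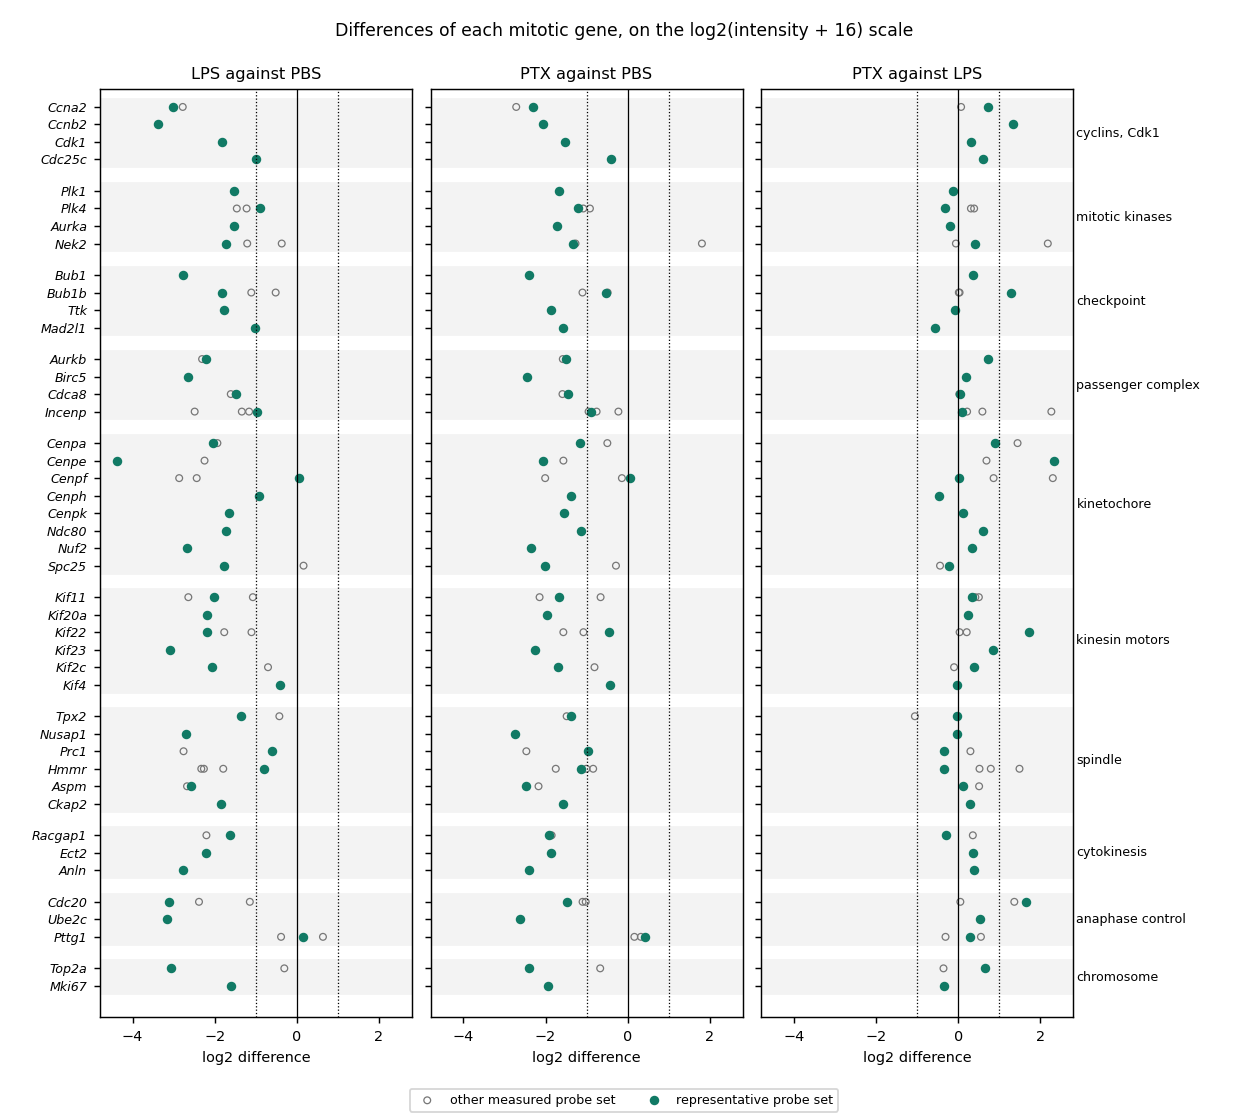
Log2 differences (horizontal axis) of each member for the 3 comparisons, with the representative probe set filled, other measured probe sets open and dotted lines at 2-fold. Most points of LPS against PBS and PTX against PBS lie left of -1. Those of Pttg1, Kif4 and Cdc25c (-0.997 in LPS) do not, nor do those of Incenp in PTX against PBS. In LPS against PBS the open points of Cenpf, Prc1 and Hmmr lie left of the filled ones.

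Read by probe set, 79 of the 102 reached the measured level. In LPS against PBS 62 of these were at least 2-fold lower, 17 within 2-fold and none higher, with 75 below 0 and a median of -1.79. In PTX against PBS 56 were lower, 22 within 2-fold and 1 (of Nek2) higher, with 74 below 0 and a median of -1.48. In PTX against LPS 11 were higher, 1 lower and 67 within 2-fold. Several probe sets read 1 gene, so they are not independent. Some reached the level on the PBS array alone, such as 1 of Kif11 (89.9, 34.4 and 51.1). The share over all measured probe sets was not computed, so these counts have no background beside them. Of the members called lower, 16 had another measured probe set in each comparison, and in 12 of the 16 at least 1 of these was also 2-fold lower, in LPS and in PTX alike. The 4 without such agreement were Spc25, Kif2c, Top2a and, in LPS, Tpx2 or, in PTX, Cenpa. Their other probe sets were dimmer, and those of Spc25 (0.16 in LPS and -0.28 in PTX) and Top2a (-0.31 and -0.67) lay nearest to 0 in LPS.

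PTX against LPS addresses whether the stimuli differed from each other. Of the 44 members, 5 were at least 2-fold higher in PTX, 39 were within 2-fold and none was lower, where 13.7% of all measured genes were higher and 6.24% lower. The median was 0.28, against 0.09 over all genes, and 14 members lay below 0. The 5 were Cenpe (2.33), Kif22 (1.73), Cdc20 (1.64), Ccnb2 (1.33) and Bub1b (1.29). Their number is near the background share. Of the 4 with another measured probe set, Cdc20 alone was at least 2-fold higher in another one too (1.36), while Kif22 gave 0.20 and 0.03, Bub1b 0.01 and 0.03, and Cenpe 0.69. With median centring the count was 3 and the median turned to -0.06, and with quantile normalization they were 3 and -0.03. With the hybridization controls as the standard they were 7 and 0.51, where 18.3% of all genes were higher.

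Scaling shifts members and all other genes together. With median centring the median of all genes in LPS against PBS was 0.24 in place of -0.08, 8.72% of all genes were at least 2-fold lower and 11.4% higher, and 34 of the 44 members were lower. In PTX against LPS these shares were 12.4% lower and 8.89% higher. With the hybridization controls as the standard the median of all genes in LPS against PBS was -0.31. Then 40 members were lower, where 17.2% of all genes were. Relative to the median of all genes, that of the members lay between -2.04 and -1.41 in LPS against PBS over all 11 alternatives and between -1.87 and -1.32 in PTX against PBS.

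Other genes of the cell cycle, from lists chosen beside the members, had medians nearer to 0. Each of these genes was read by its representative probe set alone, and its other probe sets were not checked. Of 61 measured other mitotic genes, 32 were at least 2-fold lower in LPS, 1 higher and 28 within 2-fold (median -1.14), and 31 were lower in PTX, none higher and 30 within 2-fold (median -1.0003). The largest differences in LPS were those of Depdc1a (135 with PBS, 5.56 with LPS and 15.8 with PTX), Cdca3, a trigger of mitotic entry, at -2.79, and the kinesin Kif20b at -2.56. Those in PTX were Ncapg, a condensin subunit, at -2.28, Depdc1a at -2.25 and Cep55, of the midbody, at -2.12. Both stimulated readings of Depdc1a lay far under the measured level, so the sizes of its differences are uncertain. Cenpo, an inner kinetochore gene, was higher in LPS (1.22) and level in PTX (-0.09). Ncapg2, a condensin II subunit, was chosen after its values were seen and read 685.7, 178 and 1379, lower in LPS (-1.86) and 0.99 above PBS in PTX.

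Of 29 measured DNA replication genes 13 were at least 2-fold lower in LPS and 13 in PTX, none was higher in either, and the medians were -0.86 and -0.83. Rrm2, the regulated subunit of ribonucleotide reductase, was lowest in both (-2.18 and -2.43), at 1086 with PBS, 227 with LPS and 188 with PTX. Next in LPS were Mcm10, a replication initiation factor, at -1.99, and Pola1, a subunit of DNA polymerase alpha, at -1.62. Next in PTX were Uhrf1, which maintains DNA methylation, at -2.25, and the helicase subunit gene Mcm5 at -1.97. Of the 11 G1 cyclin and kinase genes 2 were at least 2-fold lower and 2 higher in LPS, 2 were lower and none higher in PTX, and the medians were -0.06 and -0.37. Ccnd2, for the G1 cyclin D2, read 333 with PBS, 3543 with LPS and 307 with PTX, so it was high in LPS (3.35) and level in PTX (-0.11). Ccne2, for a cyclin of S phase entry, was lower in both (-1.26 and -2.002). Myc, for a growth factor-responsive transcription factor, read 226, 189 and 42.8 (-0.24 and -2.04), and Mycn was at 1.21 and -0.07. Cdc25a, for a phosphatase of S phase entry, was at -1.06 and -0.37, and was chosen after its values were seen.

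**Figure D5:**
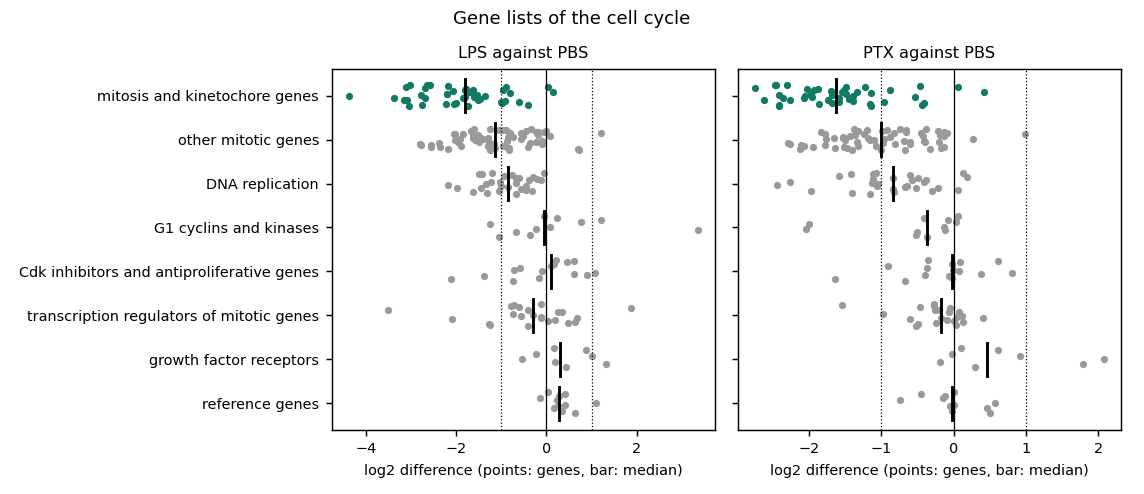
Log2 differences (horizontal axis) from PBS of the measured genes of 8 lists (points) with the median of each list (bar), for LPS and PTX, with dotted lines at 2-fold. The mitosis and kinetochore genes lie lowest (medians -1.82 and -1.63), then the other mitotic genes (-1.14 and -1.0003) and the replication genes (-0.86 and -0.83). The reference genes have medians of 0.28 and -0.02. In LPS 1 of these 11 lies below 0, and B2m is at least 2-fold higher (1.11).

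Inhibitors of the cell cycle were mostly level, as measured genes were at large. Of 15 measured Cdk inhibitor and antiproliferative genes 12 were within 2-fold in LPS (median 0.09) and 14 in PTX (median -0.03). Of all 12299 measured genes, 9899 were within 2-fold in LPS and 11633 in PTX, so these counts are near the background share. Cdkn1a, for p21, read 2498, 2899 and 1946 (0.21 and -0.36), and Cdkn1b, for p27, 1062, 1628 and 1387 (0.61 and 0.38). These 2 were chosen after their values were seen. Cdkn2c, for p18, was lower in both at 567, 118 and 171 (-2.12 and -1.64). Btg2 was lower in LPS (-1.40) and level in PTX (-0.07), and Gadd45b was higher in LPS (1.07) and at 0.80 in PTX. Cdkn2b, for p15, was at 0.09 and -0.90.

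Of 23 regulators of mitotic transcription, 18 were within 2-fold in LPS (median -0.31) and 22 in PTX (median -0.18). These counts too are near the share of all measured genes within 2-fold. Foxm1, an activator of G2 genes, was dim at 86.9, 79.0 and 69.2, and Mybl2 read 126, 114 and 171 (-0.13 and 0.40). These 2 were also chosen after their values were seen. Lin9, a MuvB subunit, read 340, 15.1 and 295, so its LPS difference was -3.52 and its PTX difference -0.20. The LPS reading of Lin9 lay far under the measured level, so the size is uncertain. E2f8, an atypical repressor E2F, was at -2.11 in LPS and -0.60 in PTX, E2f7 at -0.73 and -1.53, E2f6 at -0.74 and -0.98, and E2f4 at 1.88 and -0.05. The other two genes at least 2-fold lower in LPS, chosen after their values were seen, were Rbl1, for the pocket protein p107, at -1.27 and E2f2 at -1.25. Of the 8 growth factor receptor genes 2 were at least 2-fold higher in LPS and 2 in PTX, none was lower in either, and the medians were 0.31 and 0.46. Flt3, for a receptor of dendritic cell progenitors, was higher in both (1.33 and 1.78), Il3ra was at 1.011 and 0.92, and Csf3r, for the G-CSF receptor, at -0.54 and 2.07. Csf2rb, for the signalling chain of the GM-CSF receptor, read 9707, 11098 and 8499, and was chosen after its values were seen.

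The cultures read as myeloid by their markers. Dendritic cell markers were at or above the measured level for 11 of 12 genes with PBS and 12 of 12 with LPS and with PTX, with summed intensities of 32862, 55978 and 38931. Those of 11 macrophage markers were all above it, at 43585, 65830 and 61131, and those of 8 neutrophil markers summed to 17844, 17965 and 13952. Of the dendritic cell markers, 3 lay below PBS with LPS and 2 with PTX, among them Itgax (2383, 1691 and 1294) and Zbtb46 (236, 190 and 173). Of the macrophage markers, 4 lay below PBS with LPS, among them C1qa (-0.65), C1qb (-0.63) and C1qc (-0.72), and 1 with PTX. Single neutrophil markers moved apart from their sum: S100a9 read 3877, 1924 and 1083 and Ltf 97.3, 38.6 and 78.6, lower with LPS, while S100a8 read 6074, 9306 and 4007 and Camp 70.7, 259 and 37.7. Of 10 markers of dividing myeloid progenitors 2, 4 and 4 reached the level on the PBS, LPS and PTX arrays, with sums of 836, 992 and 980, in which Sox4 (337, 292 and 410) and Prtn3 (168, 177 and 166) weighed most. Kit (54.9, 114 and 92.7) reached the level with LPS and PTX, Gfi1 (20.2, 127 and 14.1) with LPS and Ms4a3 (58.5, 29.4 and 79.6) with PTX. Of the 10, 5 were not measured. These were Cd34, Mpo, Elane, Ctsg and Myb, which stayed under the level on each array. Mast cell and basophil markers summed to 751, 1914 and 736 (3, 4 and 3 of 8 at the level), higher with LPS. Erythroid and megakaryocyte markers summed to 5819, 6654 and 6002 (mostly Pf4, at 5351, 6024 and 5523), stromal markers to 708, 786 and 731 (with LPS Cxcl12 at -2.17, Vcam1 at -1.55 and Dcn at 2.78), T cell markers to 551, 482 and 602, B cell markers to 357, 254 and 316 and NK cell markers to 304, 278 and 317, each with at most 4 genes at the level on any array. No marker was listed at 0, the lowest value of the table being 1. The part of a changed cell mixture in the mitotic differences was not tested.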

How the data were processed

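RNA of mouse bone marrow-derived dendritic cells kept with PBS, LPS or PTX was hybridized to Affymetrix arrays (1 array per group), from 3 µg of total RNA with biotin-labelled cRNA, per the labels' protocols. The deposited table holds 1 intensity on a linear scale per probe set and array. Which program summarized the probes, and how it treated background and scale, is not given in the sources used here. Groups come from the treatment labels.

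Intensities were used as deposited, and log2(intensity + 16) was taken. Of the probe sets, 64 were controls, 34945 others had 1 gene symbol in the platform annotation and 932 had several, which were left out. For a gene with several probe sets, that of highest mean was taken. A difference of 1 (2-fold) was the bound for counting. The computation, in Python 3.11.15 with pandas 2.3.3, was tested on simulated data. Alternatives were the pseudocount (1 and 64), 3 scalings, 3 filters and 2 probe set rules, plus the median of the measured probe sets, which was chosen after seeing the data.

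The members and lists were chosen with earlier results of these data known. All members may be named, in full within each role. Of other lists at most the 3 largest differences in each comparison with PBS, and those at least 2-fold in the direction opposite to the list, are named, and genes chosen otherwise are marked.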

Additional observations from a re-analysis of the deposited data

How the results depend on the processing

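With 1 array per group no array could be left out, and no paired analysis was possible because no group had a second sample. The count of members at least 2-fold lower was 35 in LPS against PBS and between 26 and 40 over 11 alternatives. In PTX against PBS it was 36 and between 26 and 37. The lowest counts came with the filter at the 75th percentile, which left 31 members. Over the alternatives 8.28% to 17.2% of all genes were at least 2-fold lower in LPS, and 1.65% to 2.89% in PTX. The count higher in PTX than in LPS moved from 5 to 3 with median centring and to 3 with quantile normalization. It rose to 7 with the hybridization controls as the standard. Of the differences of single members under the alternatives, 1297 moved by less than 1.5 times and 88 moved by more. Signs changed in 6 values against PBS with LPS (of Cenpf and Pttg1), in 4 with PTX (of Cenpf and Nek2) and in 38 in PTX against LPS, over 23 members. Of differences of at least 2-fold, 1 turned its sign, the PTX difference of Nek2, at 1.81 without probe sets ending in _x_at or _s_at, which makes another probe set represent it. Background limits the sizes in LPS, where 25 of the 44 members reached 78.9.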
